A study of Homo sapiens with 15 samples.

Results

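The change of the valproic acid response between 48 h and 72 h of treatment was examined in K562 cells. It was taken as the log2 treated/untreated ratio at 72 h minus that at 48 h, paired by replicate number, for each of 18334 genes on 6 of the 15 arrays of the series. K562 is an established cell line from a chronic myeloid leukaemia that grows in suspension and keeps traits of early red cell precursors. At 72 h, 3 arrays compared cells given 1 mM valproic acid with untreated cells, and 3 arrays did the same at 48 h. No genetic change or second agent was recorded for any group. For the difference on all arrays, the other 9 arrays, at 2, 6 and 10 h, entered only the estimate of each gene's spread. Through the replicate terms of the fit they also moved the fitted responses at single times and the differences with 1 array left out. Each replicate number was a separate thawing of the line, carried through all 5 times. In replicate 3 the dyes were exchanged, so treated RNA carried Cy3 there and Cy5 in replicates 1 and 2.

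Valproic acid is a branched fatty acid used against epilepsy and an inhibitor of class I and class IIa histone deacetylases. These enzymes remove acetyl groups from histone tails, and acetylated chromatin is generally more open to transcription. In cell lines, inhibitors of this class are known for slowing the cell cycle and for inducing a large set of otherwise silent genes, and in erythroleukaemia cells they have been studied for their effects on globin expression. A ratio of treated over untreated RNA on the same array shows only a difference between the cultures. It gives no expression level, so the erythroid identity of the line could not be checked against marker levels. In bulk RNA fewer cells of a kind and less RNA per cell cannot be told apart, and a change of the ratio between 48 h and 72 h can come from the treated or from the untreated culture. No base was given with the logarithms, and log2 was assumed.

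The 6 arrays did not group by time alone. Over genes, 72 h replicate 1 correlated at r = 0.936 with 48 h replicate 2, at 0.876 with its own 48 h partner and at 0.832 with 48 h replicate 3, but at only 0.731 and 0.763 with 72 h replicates 2 and 3. The array of 72 h replicate 2 stood apart from all others, with r between 0.651 and 0.745. The 3 arrays of 48 h correlated with each other at 0.778 to 0.897. Among the 3 pairs, the SD over genes of the difference 72 h minus 48 h was 0.200 in pair 1, 0.297 in pair 2 and 0.238 in pair 3. Array weights, which fall as an array scatters more around the fitted ratios, were 0.612, 0.407 and 0.780 at 72 h, against 0.686, 1.20 and 1.25 at 48 h. The array labelled 72 h replicate 1 thus lay nearer to the 48 h arrays than to its own group. Whether its label is right was not tested, it was used as labelled, and with another label each difference would mean something else. Counts for gene groups are repeated with 72 h replicate 1, 2 or 3 left out.

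**Figure D1:**
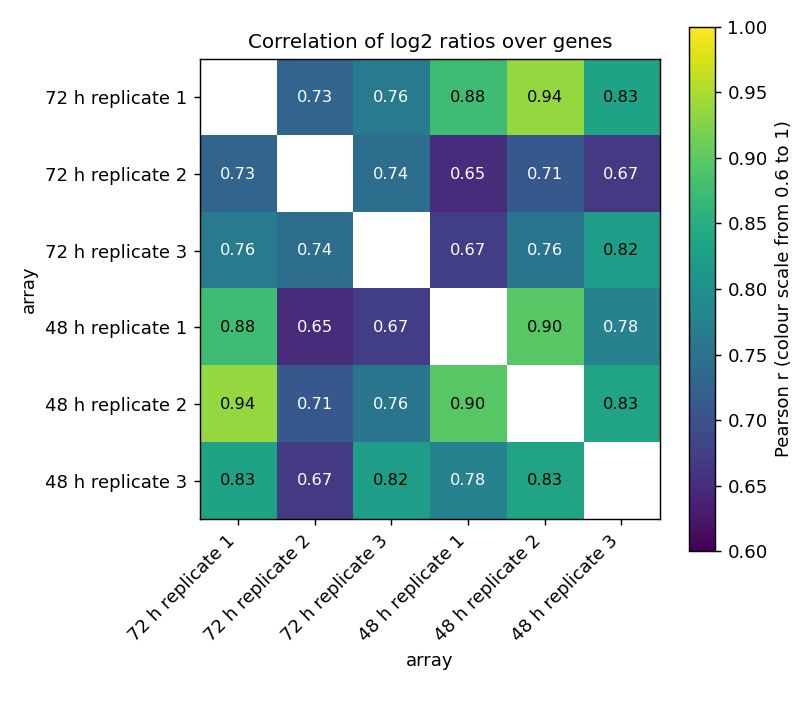
Pearson correlation of the log2 treated/untreated ratios over 18334 genes between each 2 of the 6 arrays of 72 h and 48 h, with 72 h listed first on both axes. The highest value, 0.94, joins 72 h replicate 1 and 48 h replicate 2, and the lowest values lie in the row of 72 h replicate 2.

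Similar numbers of genes responded at both times. Treated cells differed from untreated cells in 6594 genes at 72 h, 36% of those tested, and in 6867 genes at 48 h, 37.5%, by limma's moderated test at an adjusted p under 0.05. These were 4080 higher and 2514 lower genes at 72 h, against 4244 higher and 2623 lower at 48 h. For the difference between the times itself, 0 of 18334 genes passed (0% called in either direction), and the lowest adjusted p was 0.102. At an unadjusted p under 0.05 there were 2527 genes, 13.8% of those tested, with 1231 higher at 72 h (6.71%) and 1296 lower (7.07%). The median SE of a difference was 0.08 on the log2 scale and the median size of a difference was also 0.08. The 95% interval of the difference lay within ±0.5 for 15927 genes, 86.9% of all, and within ±1 for 18115 genes, 98.8%. Without 72 h replicate 1 the same test called 839 genes (4.58%), with 311 higher at 72 h (1.7%) and 528 lower (2.88%), whereas without 72 h replicate 2 or 3 it called 0, with 1797 (9.8%) and 2070 (11.3%) at an unadjusted p under 0.05. Leaving out 72 h replicate 1, the array nearest to 48 h, sets the times further apart by construction, so its calls are no independent support for any gene. At an unadjusted p under 0.05 that fit gave 3470 genes (18.9%), 1483 higher (8.09%) and 1987 lower (10.8%). The fits with fewer genes gave 957 higher (5.22%) and 840 lower genes (4.58%) without replicate 2, and 997 higher (5.44%) and 1073 lower genes (5.85%) without replicate 3. In the steps before, limma called 668 genes between 2 h and 6 h (3.64%), 0 between 6 h and 10 h (1444 at an unadjusted p under 0.05, 7.88%) and 893 between 10 h and 48 h (4.87%). Words such as higher and lower below refer to the ratio at 72 h relative to 48 h, and are values, not calls. Where counts of a gene group are given without 72 h replicate 1, 2 and 3, they stand in that order and are at an unadjusted p under 0.05.

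The 5 genes with the lowest adjusted p, each at 0.102 by limma, had differences with little scatter. They were chosen for their values. CCL2 encodes a chemokine that attracts monocytes. Its log2 ratio was 1.88, 2.32 and 2.01 in replicates 1 to 3 at 72 h, against 1.25, 1.34 and 1.41 at 48 h, a difference of 0.73 ± 0.10 (SE). All arrays of 72 h lay above all arrays of 48 h. PAEP encodes glycodelin, a secreted lipocalin of reproductive tissues. Its ratio was 1.08, 1.47 and 1.62 at 72 h, against 0.55, 0.50 and 0.71 at 48 h, a difference of 0.80 ± 0.11 with no overlap. JUND, which encodes a subunit of the transcription factor AP-1, differed by 0.51 ± 0.07, with 1.37, 1.31 and 0.78 at 72 h against 0.84, 0.83 and 0.27 at 48 h. Its groups overlapped, because replicate 3 was the lowest at both times, and the offset was alike in all 3 pairs. DYSF, the gene of a membrane repair protein of muscle, was less reduced at 72 h, at −0.25, −0.05 and −0.05 against −0.66, −0.61 and −0.43 at 48 h. IRX5, a homeobox gene, was the only one of the 5 that was lower at 72 h, by −0.38 ± 0.06, at 0.75, 0.50 and 0.26 against 1.06, 0.88 and 0.70 at 48 h. Its groups overlapped, whereas those of DYSF did not. With 72 h replicate 1 left out the adjusted p of the 5 genes lay between 0.000705 and 0.0143 by limma. These values are no independent support, since the genes were chosen from the same arrays.

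Large differences were mostly negative. Only 17 genes differed by at least 1 on the log2 scale, 3 of them higher and 14 lower at 72 h, and 306 differed by at least 0.5. Of the 14 largest positive and the 14 largest negative differences with the same sign in all 3 pairs, none passed the adjusted test on all arrays, so they are given as values. Among the 14 positive ones, 10 had ratios below 0 on every array at 48 h, and 7 had ratios above 0 on every array at 72 h. Among the 14 negative ones, 13 had ratios above 0 on every array at 48 h, and only 2 still did at 72 h. The groups did not overlap for 12 of the 14 positive differences, while over all genes 884 (4.82%) had all arrays of 72 h higher. They did not overlap for 6 of the 14 negative ones, against 751 genes in all (4.1%). These genes were selected for size and for the sign of the pairs, so the counts describe them and test nothing. When 72 h replicate 1 was left out, 13 of the 14 positive and 14 of the 14 negative ones were called. Over all genes 1.7% were called higher and 2.88% lower in that fit. The selected genes had the largest differences on the same arrays, and leaving out the array nearest to 48 h sets the times further apart. Their calls in that fit are therefore no independent support.

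**Figure D2:**
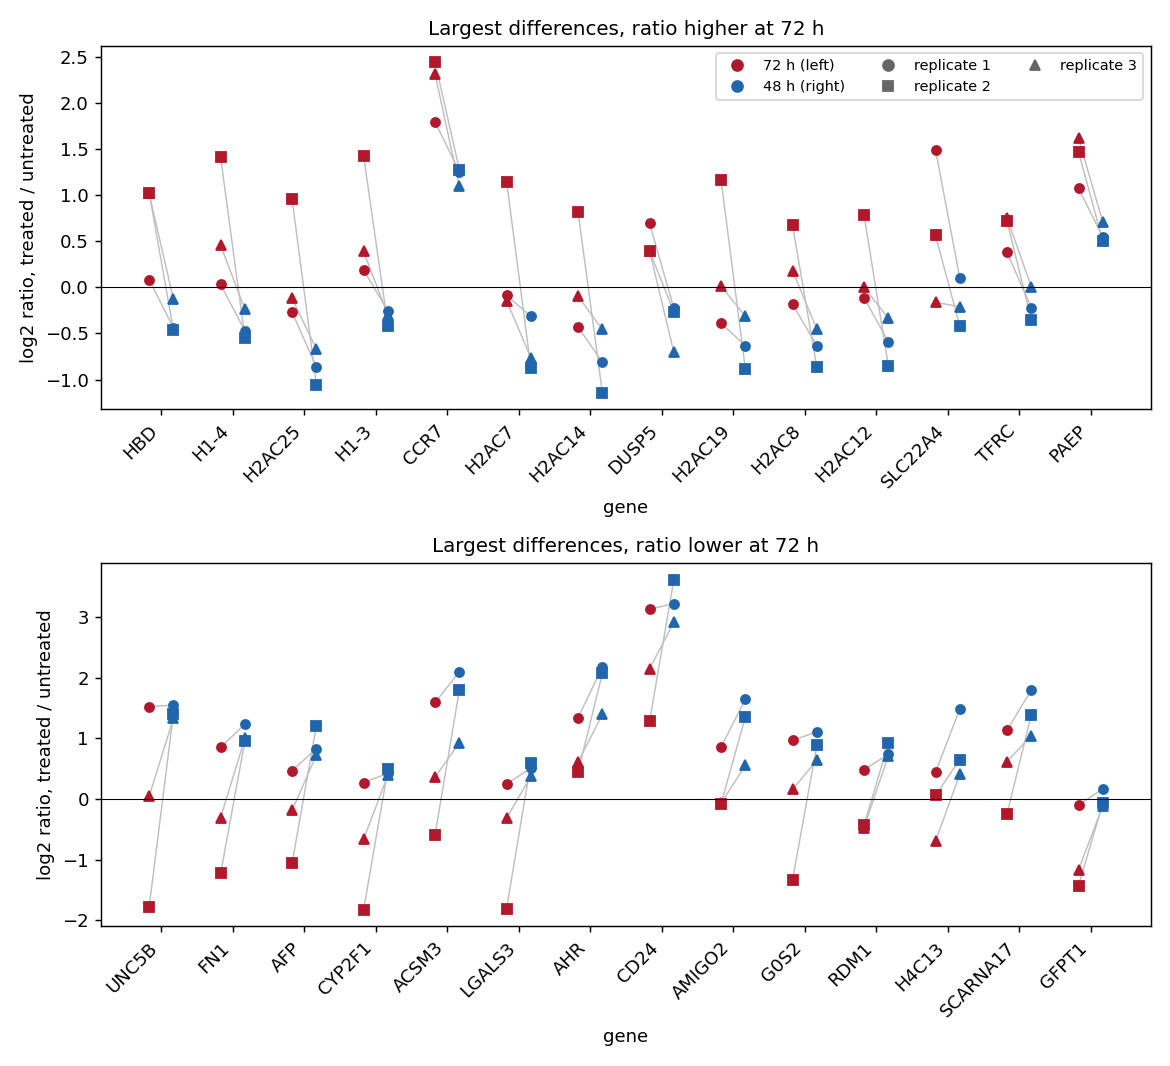
Log2 treated/untreated ratios of the 14 largest positive (upper panel) and 14 largest negative differences (lower panel), with 72 h (red) left of 48 h (blue) for each gene and lines joining the 2 arrays of a replicate. Circles, squares and triangles are replicates 1, 2 and 3. In the lower panel replicate 2 has the widest gap in 13 of 14 genes and replicate 1 the narrowest in 10.

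The largest positive difference was that of a globin gene, followed by histone genes. HBD encodes the delta chain of adult haemoglobin A2. Its ratio was 0.09, 1.03 and 1.02 at 72 h, against −0.44, −0.47 and −0.13 at 48 h, a difference of 1.06 ± 0.19 (SE). Every 72 h array lay above every 48 h array, and replicate 1 was the lowest at 72 h. Over the earlier times HBD had been below untreated cells, with mean ratios of −0.29 ± 0.13 at 2 h, −0.47 ± 0.15 at 6 h and −0.48 ± 0.03 at 10 h (SD, n = 3 each). TFRC, the transferrin receptor through which erythroid cells take up iron, was 0.38, 0.72 and 0.76 at 72 h, against −0.22, −0.35 and 0.01 at 48 h, a difference of 0.81 ± 0.15. It too did not overlap. Its mean ratio had been lowest at 10 h, at −0.71 ± 0.26 (SD, n = 3).

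The globins as a list, with HBD counted, were higher at 72 h in part. Of 11 measured genes including HBD and the alpha chain chaperone AHSP, 6 were higher and 0 lower at an unadjusted p under 0.05. Their median ratio was −0.08 at 72 h against −0.47 at 48 h. The mean ratios of HBD, HBA1, HBA2, HBG1 and HBM were above the level of untreated cells at 72 h, and those of the other members were below it. The share higher was 54.5%, against 6.71% of all genes. The adult beta chain gene HBB was −0.79, 0.17 and −0.42 at 72 h, against −1.43, −1.21 and −0.66 at 48 h, a difference of 0.75 ± 0.18. The groups overlapped, since replicate 1 at 72 h lay below replicate 3 at 48 h. Differences were 0.74 ± 0.31 for the alpha chain gene HBA2 and 0.62 ± 0.29 for HBA1, 0.54 ± 0.18 for the fetal chain gene HBG2, 0.47 ± 0.15 for the embryonic chain gene HBE1 and 0.26 ± 0.08 for AHSP. Both alpha chain genes were lower in pair 1, with pair differences of −0.11, 1.89 and 0.43 for HBA2 and −0.32, 1.74 and 0.44 for HBA1. Without 72 h replicate 2 their differences were 0.28 and 0.19. The embryonic zeta chain gene HBZ was −0.12, −0.47 and −1.92 at 72 h, against 0.18, −0.41 and −1.25 at 48 h, lower in all 3 pairs but with a difference of −0.35 ± 0.39. HBG1, the second fetal chain gene, differed by 0.00 ± 0.12, with a 95% interval of −0.26 to 0.25, and the sign of this value changed when arrays were scaled to a common spread. HBA1 and HBA2, like HBG1 and HBG2, are nearly identical, and a probe may bind the RNA of both. The median difference of the list was 0.06 in pair 1, 0.85 in pair 2 and 0.24 in pair 3. Leaving out 72 h replicates 1, 2 and 3 in turn left 7, 4 and 5 globins higher and 0 lower.

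Genes of the red cell membrane and of erythroid transcription differed less, and their list medians were alike in the 3 pairs. Single genes varied more between pairs. Higher in all 3 pairs were 9 of 19 membrane genes and 7 of 16 transcription genes, against 17% of all genes. Lower in all 3 pairs were 0 and 1, against 14.2% of all genes. Of 19 membrane and blood group genes 7 were higher and 0 lower at an unadjusted p under 0.05, with list medians of 0.10, 0.13 and 0.13 in pairs 1, 2 and 3. The 7 were 36.8% of that list, against 6.71% of all genes. Without 72 h replicates 1, 2 and 3, membrane genes numbered 6, 7 and 7 higher and 1, 0 and 0 lower. RHCE, which encodes the Rh blood group CE antigens, was 0.73, 1.41 and 1.19 at 72 h, against 0.56, 0.41 and 0.77 at 48 h. RHD, its close paralogue, differed by 0.35 ± 0.10, and the 2 genes are similar enough for a probe to bind both. Of 16 erythroid transcription factors and receptors, 5 were higher (31.25%, against 6.71% of all genes) and 1 lower (6.25%, against 7.07%). Without 72 h replicates 1, 2 and 3, 5, 4 and 5 were higher and 1, 0 and 0 lower. The genes named next are not all members of this list. NFE2, a factor that acts at the globin locus control region, was 0.17, 0.63 and 0.57 at 72 h, against −0.08, −0.20 and −0.09 at 48 h. All arrays of 72 h were above 0 and all arrays of 48 h below it, with a difference of 0.58 ± 0.12. EPOR, the erythropoietin receptor, differed by 0.27 ± 0.08 and GFI1B, a repressor needed for red cell and platelet formation, by 0.27 ± 0.08. The erythroid master regulators KLF1, GATA1 and TAL1 differed by 0.34 ± 0.12, 0.16 ± 0.07 and 0.17 ± 0.06. KLF1 was still below untreated cells on every array, at −0.91, −0.62 and −0.25 at 72 h, against −1.28, −1.05 and −0.46 at 48 h. The 1 lower member was STAT5B, a transducer of cytokine receptor signals, with −0.12, −0.40 and −0.40 at 72 h against 0.05, 0.04 and −0.13 at 48 h. Of 22 genes of heme synthesis and iron handling 3 were higher and 0 lower, and 6, 1 and 3 were higher and 2, 0 and 0 lower without 72 h replicates 1, 2 and 3. The 3 higher were 13.6% of that list, against 6.71% of all genes. Over all genes 8.09%, 5.22% and 5.44% were higher and 10.8%, 4.58% and 5.85% lower without those arrays in turn.

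**Figure D3:**
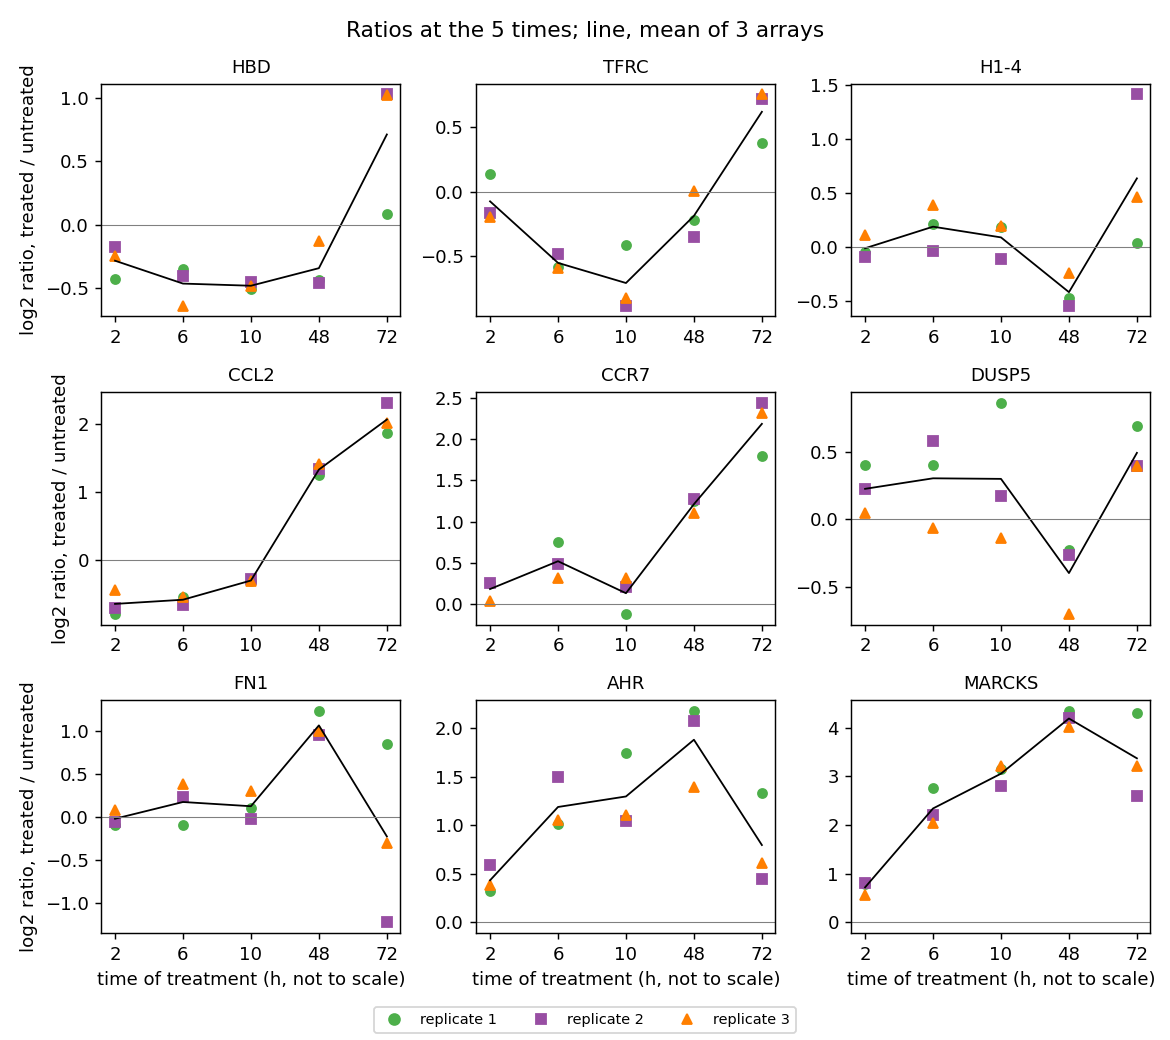
Log2 treated/untreated ratios of 9 genes at 2, 6, 10, 48 and 72 h (time axis not to scale), with replicates 1, 2 and 3 as circles, squares and triangles and the mean of 3 arrays as a line. HBD, TFRC, H1-4 and DUSP5 have mean ratios below 0 at 48 h and above 0 at 72 h, CCL2 and CCR7 are highest at 72 h, and FN1, AHR and MARCKS are highest at 48 h.

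Replication-dependent histone genes had the largest share of higher members among the 47 lists. They encode the bulk histones that package newly copied DNA and are transcribed mainly in S phase. The mRNAs of this class usually end in a stem-loop instead of a poly(A) tail, and the primer used for labelling was not given in the sources used here. Of 50 measured genes, 34 were higher and 4 lower at 72 h at an unadjusted p under 0.05, and the median ratio was 0.27 at 72 h against −0.15 at 48 h. The shares were 68% higher and 8% lower, against 6.71% and 7.07% of all genes. By class, 9 of 9 H2A, 11 of 15 H2B, 6 of 10 H3, 6 of 11 H4 and 2 of 5 linker H1 genes were higher. The linker histone gene H1-4 was 0.03, 1.41 and 0.46 at 72 h, against −0.47, −0.55 and −0.24 at 48 h, a difference of 1.05 ± 0.26. H1-3, another linker histone gene, was 0.19, 1.43 and 0.39 at 72 h, against −0.25, −0.41 and −0.30 at 48 h. In both genes every array was above 0 at 72 h and below 0 at 48 h, and 72 h replicate 2 was far above its partners. H2A genes filled much of the remaining top of the list, with differences of 1.05 ± 0.23 for H2AC25, 0.96 ± 0.25 for H2AC7, 0.90 ± 0.25 for H2AC14, 0.87 ± 0.28 for H2AC19, 0.87 ± 0.18 for H2AC8 and 0.82 ± 0.19 for H2AC12. H2AC25, H2AC7 and H2AC19 were not on the list of 50 and are not counted in it. Since histone genes are very alike, the RNA of a member may reach the probe of another, so these are not independent measurements.

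Replicate 2 carried much of the size of the histone differences. The median over the list was 0.14 in pair 1, 0.88 in pair 2 and 0.18 in pair 3. The number higher in all 3 pairs was 33 of 50, against 3111 of 18334 genes (17%). Of the 50, 39, 18 and 34 were higher and 4, 5 and 3 lower without 72 h replicates 1, 2 and 3. The median difference was 0.19 without 72 h replicate 2, in place of 0.41.

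The lower histone genes were all of class H4. H4C13 was 0.44, 0.06 and −0.70 at 72 h, against 1.49, 0.65 and 0.41 at 48 h, a difference of −0.91 ± 0.21. Differences were −0.85 ± 0.21 for H4C2, −0.75 ± 0.21 for H4C4 and −0.56 ± 0.19 for H4C3. Over the 6 arrays the values of H4C2, H4C4 and H4C13 correlated with each other at r = 0.994 or above, so they may be readings of the same RNA. In the same class H4C8 was 0.26, 0.81 and 0.54 at 72 h, against −0.20, −0.35 and 0.04 at 48 h, with a difference of 0.71 ± 0.16 and no overlap. Pair 2, which had the largest positive differences over the list, had the smallest negative ones in these 4 H4 genes.

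Promoters are shown for the linker genes with the largest positive differences and for the H4 gene with the largest negative one, as the 250 bases before the gene start in RefSeq's GRCh38.p14. Capitals mark 3 motifs that were searched on both strands. The first, TATAAA, is the TATA box of core promoters, the second, CCAAT, is the box bound by NF-Y, and the last, AAACACA, is an element known from H1 gene promoters, and a match on the other strand is capitalised in its reverse complement.
H1-4, chr6:26156079-26156328, plus strand: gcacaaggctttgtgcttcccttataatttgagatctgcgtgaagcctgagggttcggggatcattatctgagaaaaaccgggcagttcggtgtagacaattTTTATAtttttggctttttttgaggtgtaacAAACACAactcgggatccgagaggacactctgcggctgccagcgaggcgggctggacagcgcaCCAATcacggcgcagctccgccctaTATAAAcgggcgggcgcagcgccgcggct
H1-3, chr6:26234988-26235237, minus strand: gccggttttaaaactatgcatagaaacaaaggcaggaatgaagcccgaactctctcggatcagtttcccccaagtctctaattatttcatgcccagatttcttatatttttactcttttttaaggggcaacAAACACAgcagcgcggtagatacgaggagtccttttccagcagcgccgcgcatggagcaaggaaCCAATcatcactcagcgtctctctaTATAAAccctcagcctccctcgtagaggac
H4C13, chr6:27873535-27873784, minus strand: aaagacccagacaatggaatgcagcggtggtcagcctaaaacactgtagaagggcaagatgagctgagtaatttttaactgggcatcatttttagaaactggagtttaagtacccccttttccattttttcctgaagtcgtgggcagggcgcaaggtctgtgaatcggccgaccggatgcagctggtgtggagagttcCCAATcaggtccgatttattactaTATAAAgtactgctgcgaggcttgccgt
Both H1 promoters hold AAACACA, at 117 and 119 bases before the start, and a CCAAT box at 54 and 55 bases followed by TATAAA at 29 and 30 bases. The promoter of H4C13 holds CCAAT at 52 and TATAAA at 28 bases and no AAACACA. Promoter entries were counted, and a gene can have more than 1. Of 49 entries of list members, TATAAA was present in 34 (69.4%), CCAAT in 43 (87.8%) and AAACACA in 5 (10.2%). The shares over all 35116 promoters of that length were 10.7%, 32.0% and 4.82%. All 5 entries of measured H1 genes held AAACACA. The TATA box was present in 23 of 32 entries of genes that were higher at an unadjusted p under 0.05. It was present in 3 of 3 entries of lower genes and in 8 of the other 14 entries. The CCAAT box was present in 29, 1 and 13 of the same groups, and the H1 element in 2, 0 and 3. These matches describe letters in a window and are not shown to be sites in use.

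**Figure D4:**
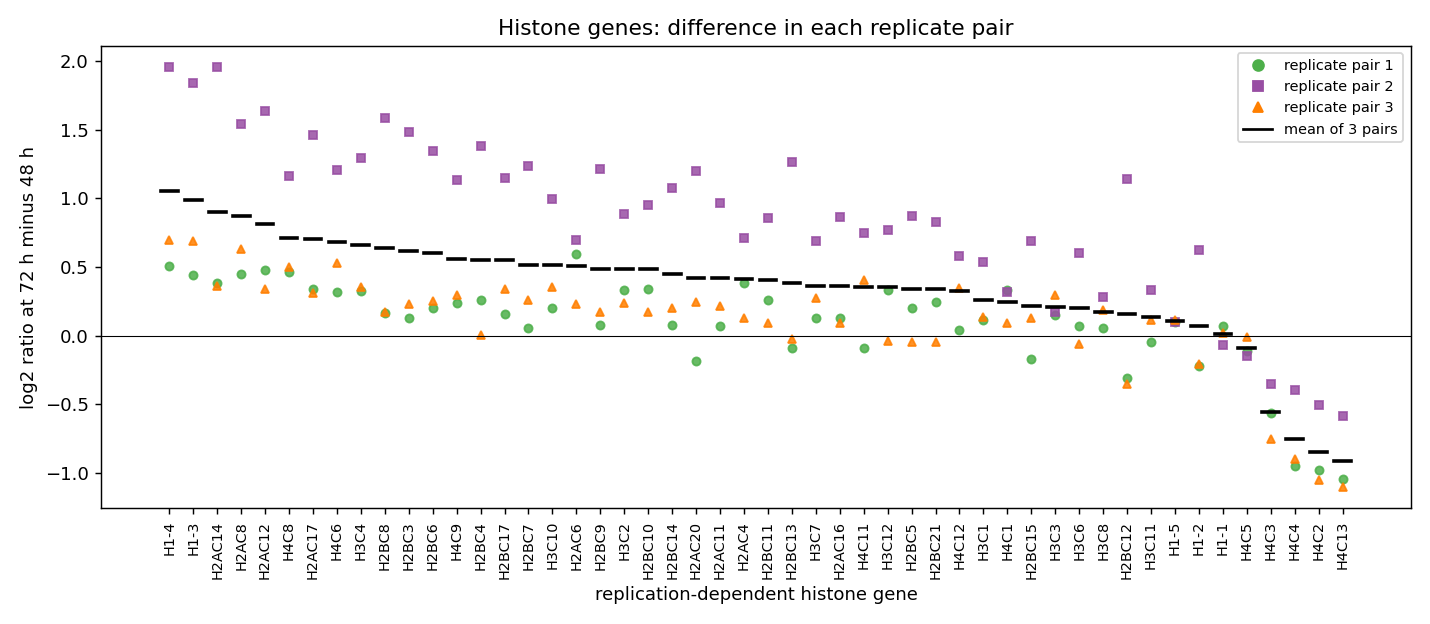
Difference of the log2 ratio, 72 h minus 48 h, for the 50 measured replication-dependent histone genes in order of the mean of 3 pairs (black bars), with pairs 1, 2 and 3 as circles, squares and triangles. Pair 2 lies highest for most genes, and 4 H4 genes at the right end lie below 0 in all pairs.

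Cell cycle genes other than histones were lower at 72 h in part. Of 53 mitosis genes 21 were lower and 0 higher at an unadjusted p under 0.05, and of 52 DNA replication genes 10 were lower and 0 higher. Their median ratios were −0.32 and −0.21 at 72 h, against −0.11 and −0.12 at 48 h. Lower members made up 39.6% of the mitosis list and 19.2% of the replication list, against 7.07% of all genes. The mitotic kinase gene PBK was 0.20, 0.18 and −0.50 at 72 h, against 0.74, 0.82 and 0.34 at 48 h, a difference of −0.67 ± 0.14 with no overlap. DLGAP5, a spindle protein gene, was −0.21, −0.41 and −0.99 at 72 h, against 0.11, 0.07 and −0.10 at 48 h. Here too the groups did not overlap, and replicate 3 was the lowest at both times. Differences were −0.49 ± 0.17 for the topoisomerase gene TOP2A, −0.30 ± 0.08 for the kinetochore motor gene CENPE and −0.27 ± 0.08 for the cyclin gene CCNB2. In the replication list RFC1, which encodes the large subunit of the clamp loader, differed by −0.37 ± 0.07 and RPA3, a subunit of the single-strand binding complex, by −0.40 ± 0.10. Pair 3 held the largest part of both lists, with medians of −0.12, −0.04 and −0.52 for mitosis and −0.05, 0.06 and −0.32 for replication in pairs 1, 2 and 3. Mitosis genes numbered 26, 27 and 5 lower and 0, 0 and 2 higher without 72 h replicates 1, 2 and 3, and replication genes 12, 19 and 5 lower and 1, 0 and 8 higher. Both counts thus rested on 72 h replicate 3. Of 6 cyclin-dependent kinase inhibitors 0 passed in either direction. CDKN1A, which encodes the inhibitor p21, was 1.83, 1.60 and 1.56 at 72 h, against 1.50, 1.58 and 1.57 at 48 h, with a 95% interval of the difference of −0.21 to 0.43.

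Chemokine and immediate early genes included several of the best separated positive differences. CCR7, a chemokine receptor that guides lymphocytes to lymph nodes, was 1.80, 2.44 and 2.31 at 72 h, against 1.26, 1.28 and 1.10 at 48 h, a difference of 0.97 ± 0.16. Its lowest 72 h array lay well above its highest 48 h array. CCL3, a macrophage inflammatory chemokine, was 0.12, 0.73 and 0.12 at 72 h, against −0.43, −0.33 and −0.51 at 48 h. CCL4, its neighbour and close relative, was 0.64, 0.97 and 0.54 at 72 h, against 0.08, −0.02 and 0.24 at 48 h. CXCL8, the neutrophil chemokine interleukin 8, was 0.50, 1.32 and 0.65 at 72 h, against 0.15, 0.35 and 0.01 at 48 h. For all 4 genes the arrays of the 2 times did not overlap. In the whole list of 31 chemokines, cytokines and receptors, 5 were higher and 2 lower at an unadjusted p under 0.05 and the median difference was −0.02, so the positive differences were those of a few members. The list's shares were 16.1% higher and 6.45% lower, against 6.71% and 7.07% of all genes. Among these 31, 6, 5 and 6 were higher and 7, 0 and 0 lower without 72 h replicates 1, 2 and 3.

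Of 29 immediate early genes, which respond to growth factors and stress without new protein synthesis, 7 were higher and 1 lower at an unadjusted p under 0.05. These shares were 24.1% and 3.45%, against 6.71% and 7.07% of all genes. FOS, an AP-1 subunit gene, was 2.44, 2.24 and 1.75 at 72 h, against 1.36, 1.61 and 1.58 at 48 h, a difference of 0.63 ± 0.13. JUNB, another AP-1 gene, differed by 0.52 ± 0.12 and ZFP36, which encodes an mRNA decay factor, by 0.60 ± 0.16. DUSP5, a phosphatase of the kinase ERK, was 0.70, 0.40 and 0.40 at 72 h, against −0.23, −0.27 and −0.71 at 48 h, a difference of 0.90 ± 0.15. All its arrays were above 0 at 72 h and below 0 at 48 h. JUN was the member that was lower, at 1.22, −0.05 and 0.63 against 1.25, 1.05 and 1.26 at 48 h. Its groups overlapped, since replicate 1 was nearly level between the times. The list medians were 0.19, 0.12 and 0.11 in pairs 1, 2 and 3, and 7, 7 and 8 members were higher and 3, 0 and 0 lower without 72 h replicates 1, 2 and 3.

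Several of the 14 largest negative differences are described here by their arrays. UNC5B, a netrin receptor, was 1.53, −1.79 and 0.04 at 72 h, against 1.55, 1.41 and 1.33 at 48 h. The 48 h arrays lay close together and the 72 h arrays spread over more than 3 log2 units, so the difference of −1.50 had an SE of 0.52. FN1, the matrix protein fibronectin, was 0.85, −1.23 and −0.31 at 72 h, against 1.23, 0.96 and 1.00 at 48 h, a difference of −1.29 ± 0.34. AHR, the aryl hydrocarbon receptor, was 1.34, 0.44 and 0.61 at 72 h, against 2.18, 2.07 and 1.40 at 48 h. Its groups did not overlap, though replicate 1 at 72 h came near replicate 3 at 48 h, and it was still above untreated cells on every array. CD24, a surface glycoprotein, was 3.13, 1.28 and 2.15 at 72 h, against 3.22, 3.62 and 2.92 at 48 h. RDM1, a gene of the RAD52 family, was 0.48, −0.43 and −0.47 at 72 h, against 0.74, 0.92 and 0.71 at 48 h. GFPT1, the first enzyme of hexosamine synthesis, was −0.10, −1.44 and −1.17 at 72 h, against 0.17, −0.07 and −0.11 at 48 h, when it was near untreated cells.

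The other large negative differences followed the same order of arrays. They were −1.18 ± 0.29 for the fetal plasma protein gene AFP, −1.18 ± 0.33 for the cytochrome gene CYP2F1, −1.16 ± 0.38 for the acyl-CoA synthetase gene ACSM3, −1.12 ± 0.35 for the galectin gene LGALS3, −0.95 ± 0.27 for the adhesion gene AMIGO2, −0.95 ± 0.35 for the lipase inhibitor gene G0S2 and −0.91 ± 0.24 for the small Cajal body RNA SCARNA17. S100P, a calcium-binding protein gene, had a larger negative difference still, −1.53 ± 0.48, with −0.37, −3.32 and −2.65 at 72 h against −0.66, −0.64 and −0.44 at 48 h. It was not among the 14 because pair 1 ran the other way. SLC22A4, a carrier of organic cations, was the positive counterpart: replicate 1 was the highest, at 1.50, 0.56 and −0.16 at 72 h against 0.10, −0.42 and −0.21 at 48 h.

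Some genes of protein folding in the endoplasmic reticulum were lower at 72 h. Of 25 measured, 8 were lower and 0 higher at an unadjusted p under 0.05, with a median ratio of 0.01 at 72 h against 0.22 at 48 h. The share lower was 32%, against 7.07% of all genes. HSPA5, the main chaperone of that compartment, was 0.25, −0.67 and −0.21 at 72 h, against 0.55, 0.40 and 0.38 at 48 h, a difference of −0.65 ± 0.16 without overlap. HSP90B1, its HSP90 relative, differed by −0.42 ± 0.09 and MANF, a secreted stress protein, by −0.56 ± 0.19. Of the 25, 15, 5 and 7 were lower and 0, 0 and 1 higher without 72 h replicates 1, 2 and 3. Of 38 actin cytoskeleton genes 10 were lower and 1 higher, but 12, 4 and 7 were lower and 1, 0 and 4 higher without 72 h replicates 1, 2 and 3. On all arrays the shares were 26.3% lower and 2.63% higher, against 7.07% and 6.71% of all genes. The largest negative difference was that of TMSB4X, which encodes the actin monomer binder thymosin beta 4. TMSB4X was 1.28, −0.08 and 0.47 at 72 h, against 1.58, 1.49 and 1.26 at 48 h, with overlap through replicate 1. The tropomyosin gene TPM1 differed by −0.32 ± 0.08 and the filament-severing gelsolin gene GSN by −0.41 ± 0.14, and the bundling protein gene FSCN1 by 0.53 ± 0.18 in the other direction.

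Some glycolysis genes were higher at 72 h, by small amounts. Of 24 genes of glycolysis and glucose uptake 8 were higher and 1 lower at an unadjusted p under 0.05, and the list median was 0.16, 0.02 and 0.14 in pairs 1, 2 and 3. The shares were 33.3% higher and 4.17% lower, against 6.71% and 7.07% of all genes. Without 72 h replicates 1, 2 and 3, glycolysis genes numbered 6, 6 and 6 higher and 1, 0 and 1 lower. GAPDH was −0.12, 0.19 and 0.12 at 72 h, against −0.44, −0.37 and −0.23 at 48 h, with no overlap and a difference of 0.41 ± 0.11. Triose phosphate isomerase (TPI1) differed by 0.48 ± 0.13, phosphoglycerate kinase (PGK1) by 0.31 ± 0.09 and lactate dehydrogenase A (LDHA) by 0.26 ± 0.07. PFKM, the muscle form of phosphofructokinase, was the lower member, at −0.38 ± 0.13.

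**Figure D5:**
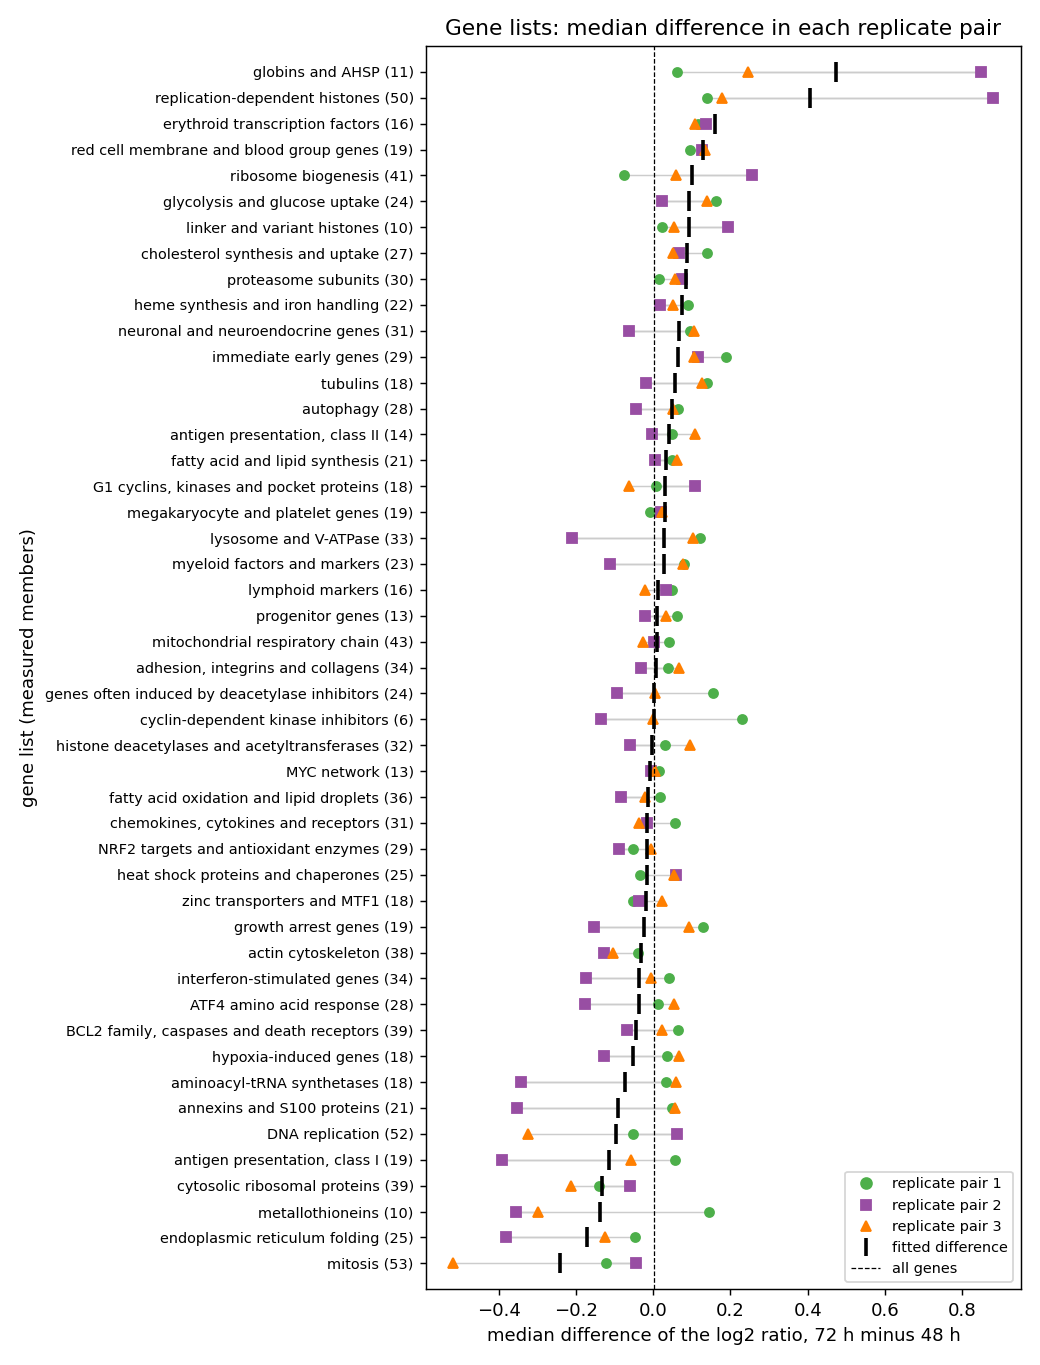
Median difference of the log2 ratio, 72 h minus 48 h, for 47 gene lists in each replicate pair (circles, squares and triangles for pairs 1, 2 and 3) and of the fitted differences (black bars), with the number of measured members in brackets. All 3 pairs lie above 0 for 11 lists and below 0 for 5, and pair 2 is the lowest for 28.

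Of all 47 lists, 38 had a median difference within ±0.1. The highest was 0.47, for the globins, and the lowest −0.24, for mitosis, while the median over all genes tested was 0.00. Pair 1 had a median above 0 in 37 lists and pair 2 had one below 0 in 29, as the plot of list medians shows. The members overlap between some lists, and the pairs of a list share all their arrays with the other lists.

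By their fitted ratios some genes crossed the level of untreated cells, though not all of them did so on every array. Of the genes called at both times against untreated cells, 16 had opposite signs, 8 of them higher and 8 lower at 72 h, and by this choice they had to differ. The 8 largest include DUSP5 and CCL3 as described. TMOD1, a cap of red cell actin filaments, was 0.02, 0.45 and 0.20 at 72 h, against −0.56, −0.43 and −0.21 at 48 h. DIAPH3, a formin of the cell cortex, was 0.04, −0.23 and −0.44 at 72 h, against 0.75, 0.27 and 0.10 at 48 h. The others were EGFL7, RBM19 and SEPTIN5, with differences of 0.59 ± 0.11, 0.45 ± 0.09 and 0.45 ± 0.07, and ACOT13, with −0.50 ± 0.10. Replicate 3 of EGFL7 was already above 0 at 48 h, at 0.21. Replicate 1 of SEPTIN5 was still below 0 at 72 h, at −0.11.

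A fixed set of genes was followed by name, and its members went both ways. In this set TFRC, KLF1, GATA1, TAL1 and PLD6 were higher in all 3 pairs. MARCKS, FBXL16, DHRS2, CSRP2, MYC and HBZ were lower in all 3 pairs, and several others stayed near their level at 48 h. Some strong responses outside the set, among them CCR7, FOS and CCL2, were higher at 72 h, as described. CRYM, a thyroid hormone binding protein gene, was 4.02, 3.47 and 4.77 at 72 h, against 3.60, 3.83 and 3.90 at 48 h. MARCKS, a membrane-bound kinase substrate gene, was 4.31, 2.60 and 3.21 at 72 h, against 4.35, 4.20 and 4.02 at 48 h, a difference of −0.82 ± 0.26. Replicate 1 was level and replicates 2 and 3 were lower. FBXL16, an F-box protein gene, differed by −0.63 ± 0.19, the oxidoreductase gene DHRS2 by −0.55 ± 0.20, the stem cell factor receptor gene KIT by −0.39 ± 0.23, the LIM protein gene CSRP2 by −0.32 ± 0.18 and the metallothionein gene MT2A by −0.28 ± 0.24. For HLA-B, the glutaredoxin gene GLRX and the transcription factor genes MYC and TFAP2B the 95% intervals of the difference were −0.42 to 0.26, −0.64 to 0.27, −0.61 to 0.10 and −0.63 to 0.32. PLD6, a mitochondrial phospholipase gene, stayed below untreated cells at −1.32, −0.88 and −1.13 at 72 h, against −1.37, −1.31 and −1.41 at 48 h. Its difference was 0.26 ± 0.11.

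Genes chosen at 10 h, whose arrays do not enter the difference except through the shared spread and block, gave a view of the response as a whole. The 234 genes at least 2-fold higher and called at 10 h had median ratios of 1.39 at 72 h and 1.59 at 48 h. Their median difference was 0.05 in pair 1, −0.53 in pair 2 and −0.16 in pair 3, so pair 1 did not share the lower level. For the 7 genes at least 2-fold lower at 10 h the median ratio was −0.77 at 72 h and −1.02 at 48 h, with pair medians of 0.26, 0.43 and 0.25. Over all 3295 genes called higher at 10 h (18%) the median difference was −0.06, and over the 2120 called lower (11.6%) it was 0.06.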

How the data were processed

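The deposited table holds treated/untreated log ratios, per the labels, for 45220 probes of 15 2-colour arrays. The authors used limma, per the submitters' processing notes. Its version and the steps before it are not given in the sources used here. The base of the deposited logarithms is not stated and was assumed to be log2, and the values ran from −4.09 to 4.83. No intensities were used, so depth is not defined and precision is limited by the number of arrays. Ratios of replicate 3 were used as deposited, since their correlation with the mean of replicates 1 and 2 was 0.827 at 48 h and 0.810 at 72 h.

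Of the probes 31332 had 1 gene symbol, 93 had several and 13795 had none, and current symbols came from a reference table for 31291. Probes of a gene were averaged (18334 genes, 7759 with more than 1 probe). limma 3.58.1 in R 4.3.3 fitted 5 time means with the replicate as a block to all 15 arrays, leaving 8 residual degrees of freedom beside a prior of 3.45. Benjamini-Hochberg adjustment ran over all genes, and calls were made below 0.05. Values after ± are limma SEs unless named SD, and replicates are biological. The SEs use a spread pooled over all 15 arrays and can be too small for differences that involve the 72 h arrays. Scripts were tested on simulated data.

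The pairing comes from the labels, by which each replicate is a separate thawing followed through all times. The residuals of arrays of the same number correlated at a mean of 0.183, 0.153 and 0.525 for replicates 1, 2 and 3, and those of 72 h with 48 h at 0.233, −0.03 and 0.431.

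The genes, the 47 lists (1180 of 1255 genes measured) and the comparison were chosen with earlier results of these data known. Named genes are the 14 largest differences in each direction with 1 sign in 3 pairs, the largest and smallest members of lists, genes called at both times with opposite signs, and a fixed set followed by name. Other genes named as examples of a list were chosen after their values were seen. The alternatives covered the block, dye, arrays, weights, variance prior, scaling, centring and probe summary. Promoters are RefSeq's.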

Additional observations from a re-analysis of the deposited data

How the results depend on the processing

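The fits without the replicate block, with or without a dye term, gave 0 genes higher and 0 lower at 72 h, as did the fit with the replicate block on only the 6 arrays, array weights per time, a robust prior, scaled or centred arrays and the median of probes. On all arrays there was thus no call for the pairing to change, and the fit without 72 h replicate 1 was run with the replicate block only. Leaving out arrays or replicates gave 0 to 311 higher and 0 to 528 lower genes. The upper ends came without 72 h replicate 1, the array nearest to 48 h replicate 2, and 25 and 65 were called without replicate 1 at all times. The first of these sets has 1 array fewer and the second lacks replicate 1 at every time, and the cause was not tested. Against untreated cells, 1655 to 2783 genes were lower at 48 h when arrays were left out, the fewest without 48 h replicate 3. At 72 h 1369 to 2504 were lower, with 1384 without 72 h replicate 3, and 1624 were lower with only the 6 arrays, where fewer arrays set the spread. Of 117 genes followed, 109 kept the sign of their difference under all alternatives run. Many of the genes followed were chosen for the size of this difference or for its sign in the pairs. Such a choice favours a kept sign, so the count of 109 is no support for any gene. No gene passed for this difference, so neither the 109 nor the 8 exceptions were calls. With arrays scaled to a common spread HBG1 was 0.00168 and HLA-B 0.0207. When arrays or replicates were left out, the difference ran from −0.00858 to 0.18 for CDKN1A, from −0.0842 to 0.644 for CRYM, from −0.39 to 0.0439 for GLRX, from −0.136 to 0.152 for HBG1, from −0.66 to 0.168 for HBZ, from −0.348 to 0.228 for HLA-B, from −0.661 to 0.0227 for KIT and from −0.359 to 0.113 for TFAP2B. Signal over background was not used here.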

Other observations

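Counts without 72 h replicates 1, 2 and 3 are again in that order and at an unadjusted p under 0.05. Of 41 ribosome biogenesis genes 8 were higher and 1 lower at an unadjusted p under 0.05, with pair medians of −0.08, 0.26 and 0.06, and 11, 4 and 5 were higher and 2, 2 and 1 lower without 72 h replicates 1, 2 and 3. RRS1, an assembly factor of the large subunit, was −0.54, 0.12 and 0.29 at 72 h, against −0.61, −0.62 and 0.00 at 48 h. Of 39 cytosolic ribosomal protein genes 0 were higher and 6 lower, and the pair medians were −0.14, −0.06 and −0.21, with 9, 1 and 5 lower and 0 higher without those arrays in turn. Cholesterol synthesis and uptake genes had 5 of 27 higher and 0 lower, with pair medians of 0.14, 0.07 and 0.05, but 4, 4 and 5 higher and 6, 0 and 0 lower without those arrays in turn. SREBF1, a regulator of lipid synthesis genes, was −0.13, 0.01 and 0.05 at 72 h, against −0.47, −0.35 and −0.17 at 48 h, with no overlap. MYLIP, an E3 ligase of the LDL receptor, differed by −0.31 ± 0.18.

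Among 28 genes of the ATF4 amino acid response 3 were higher and 6 lower, and 3, 4 and 1 were higher and 10, 1 and 4 lower without 72 h replicates 1, 2 and 3. The asparagine synthetase gene ASNS was −1.19, −0.71 and −0.23 at 72 h, against −1.28, −1.33 and −1.20 at 48 h. The cystathionine lyase gene CTH was 0.02, −1.64 and −0.94 at 72 h, against −0.17, −0.21 and 0.01 at 48 h. Of 19 class I antigen presentation genes 1 was higher and 4 lower, and 1, 0 and 0 were higher and 8, 2 and 4 lower without those arrays in turn. The immunoproteasome subunit gene PSMB9 differed by 0.27 ± 0.11 and its partner PSMB8 by −0.38 ± 0.10, while the peptide transporter gene TAP1 differed by −0.40 ± 0.21. Of 32 deacetylase and acetyltransferase genes 7 were higher and 1 lower, and 7, 4 and 5 were higher and 3, 0 and 0 lower without those arrays in turn. SIRT7, a nucleolar deacetylase, was 0.29, 0.56 and 0.48 at 72 h, against −0.37, 0.10 and −0.12 at 48 h. Of 24 genes often induced by deacetylase inhibitors 4 were higher and 4 lower (4, 2 and 3 higher and 8, 0 and 4 lower without those arrays in turn), with a median ratio of 1.30 at 72 h against 1.34 at 48 h. Of 10 metallothioneins 0 passed in either direction at an unadjusted p under 0.05, and 5, 0 and 0 were lower without those arrays in turn. The acyl-CoA synthetase gene ACSL1 was 1.02, −0.42 and 0.36 at 72 h, against 1.29, 0.94 and 0.87 at 48 h. Shares of all genes for comparison were 6.71% higher and 7.07% lower.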
